A study of Mus musculus with 2 samples.

Results

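The 9 genes described here encode the 3 E proteins (Tcf3, Tcf4 and Tcf12), the 4 ID inhibitors (Id1 to Id4) and the ZEB factors Zeb1 and Zeb2. They were taken by symbol, with identifiers matched to the GENCODE M21 mouse annotation. All 9 were found among the 69691 rows of the gene tables and the 21474 protein-coding genes. The RNA came from granulocyte-monocyte progenitors (GMP) of the marrow, from which neutrophils and monocytes develop, and total RNA was sequenced. The mice were adult males of the C57BL/6J strain aged 5 to 6 weeks, with no allele or agent named in the labels. There was 1 group of 2 libraries, replicates 1 and 2, each made from a pool of 100 cells with added spike-in RNA. The labels give separate samples with 1 donor identifier and do not say whether they were separate animals, so each SD shows how far these 2 libraries lie apart, in part perhaps for technical reasons. With 1 group no test between conditions exists, and all values are descriptions.

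E proteins are basic helix-loop-helix (bHLH) factors that bind E-box motifs in DNA as homodimers or with tissue-restricted bHLH partners. ID proteins carry the helix-loop-helix but no basic region, so they take E proteins into dimers that do not bind DNA. ZEB factors are zinc-finger and homeodomain proteins that bind E-box-like sites and recruit corepressors. In blood cells, E proteins are best known for driving B and T cell development, TCF4 for plasmacytoid dendritic cells, ID2 for innate lymphoid and conventional dendritic cells, and ZEB2 for monocytes, macrophages and dendritic cells.

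The forms of an E protein can differ within the DNA-binding region, and the exons that decide this are shown because the transcript results below turn on them. Tcf3 carries a pair of mutually exclusive exons that encode most of the bHLH region and give the E12 and E47 proteins. E47 binds DNA well as a homodimer, whereas E12 does so poorly. The E12 exon has 236 bases (chr10:80412827-80413062, minus strand) and the E47 exon has 227 (chr10:80410398-80410624, minus strand). Aligned over 227 bases, they were identical at 175, or 77.1%. Capitals mark bases that differ or have no partner in that alignment. The bases in lower case are common to both. Tcf12 has an in-frame alternative exon of 72 bases (chr9:71868999-71869070, minus strand), which adds 24 codons upstream of the bHLH region. All 3 are written 5′ to 3′ on the strand of the gene, on GRCm38 (mm10), from the GENCODE M21 transcripts.
Tcf3 E12 exon: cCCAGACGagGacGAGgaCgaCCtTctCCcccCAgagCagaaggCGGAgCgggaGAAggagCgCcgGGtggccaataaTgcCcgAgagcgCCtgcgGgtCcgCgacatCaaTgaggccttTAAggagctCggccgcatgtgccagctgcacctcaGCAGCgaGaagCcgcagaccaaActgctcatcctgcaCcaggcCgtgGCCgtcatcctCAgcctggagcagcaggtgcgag
Tcf3 E47 exon: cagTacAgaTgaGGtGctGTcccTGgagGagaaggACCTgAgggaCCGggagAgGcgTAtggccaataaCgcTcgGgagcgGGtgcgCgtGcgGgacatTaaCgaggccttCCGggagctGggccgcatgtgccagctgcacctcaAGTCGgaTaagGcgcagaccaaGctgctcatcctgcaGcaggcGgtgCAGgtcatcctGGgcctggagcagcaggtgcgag
Tcf12 alternative exon: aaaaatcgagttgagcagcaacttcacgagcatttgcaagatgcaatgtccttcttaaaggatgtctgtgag

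The libraries summed to 40509954 (replicate 1) and 35675702 (replicate 2) expected counts, which are estimated reads per gene. Ribosomal RNA and genes that collect its reads took 44.9% of these counts in replicate 1 and 44.2% in replicate 2. All 10 GMP markers reached 1 TPM (transcript abundance scaled by length and library) in both libraries, from Csf1r and Cebpa to Mpo and Elane. The T cell, the natural killer and innate lymphoid, and the plasmacytoid dendritic cell markers were each at 0 counts for 4 of 4 genes. The B cell markers Ms4a1, Cd79a and Pax5 had 0 counts in both libraries. Summed conventional dendritic cell markers stood at 0.75 and 0.19 TPM in replicates 1 and 2, erythroid markers at 2.46 and 3.09 TPM, macrophage markers at 4.06 and 4.33 TPM, and stromal and endothelial markers at 0 and 0.200 TPM. The neutrophil markers Ltf, Camp, Mmp8 and Retnlg summed to 41.6 TPM in replicate 1 and 4.32 TPM in replicate 2. Of these, Mmp8 alone was higher in replicate 2, at 1.07 and 2.24 TPM.

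Zeb2 was the most abundant of the 9 transcripts, the E protein genes followed, and the ID genes were low or undetected. Summed over members, the ZEB genes stood at 152 ± 6.75 TPM, the E protein genes at 72.1 ± 9.18 TPM and the ID genes at 5.59 ± 2.99 TPM (SD, n = 2). The members were ordered Zeb2, Tcf12, Tcf3, Tcf4, Zeb1, Id1, Id2, with Id3 and Id4 both at 0 counts. In a pool of cells, fewer cells of a type and less RNA per cell cannot be told apart. Neighbours in this order had separate values in the 2 libraries except Tcf4 and Zeb1, Id1 and Id2, and the pair at 0. Of the 9 members, 6 reached 1 TPM in both libraries, and 45.6% of all protein-coding genes did so. The median of the members was 10.2 TPM, and that of protein-coding genes was 0.550 TPM. A full coding sequence, used below, means a complete annotated reading frame of at least 50% of the gene's longest.

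**Figure D1:**
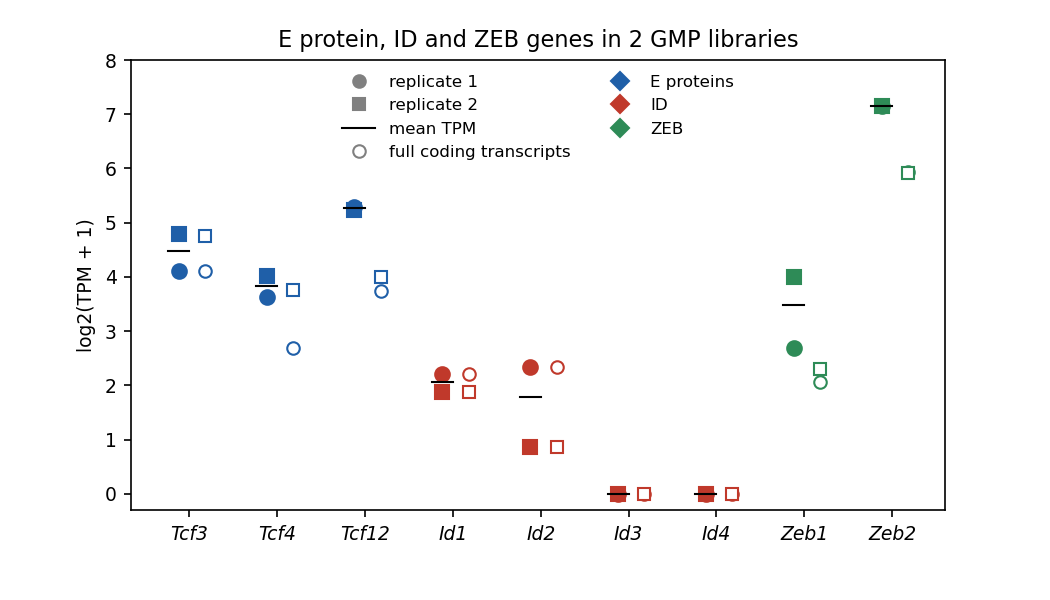
Levels of the 9 genes in each GMP library, as log2(TPM + 1). Filled symbols give the whole gene (circle, replicate 1; square, replicate 2) with a line at the mean TPM, and open symbols count only transcripts with a full coding sequence. Zeb2 is highest on both counts, Id3 and Id4 lie at 0, and the filled symbols of Zeb1 and Id2 lie far apart.

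The balance between families was expressed as the log2 ratio of their summed TPM. E protein over ID transcripts stood at 3.69 from the means, at 3.09 in replicate 1 and at 4.50 in replicate 2. On CPM (counts scaled to the library total) it was larger, at 5.33, and as a difference in mean log2(TPM + 0.1) over members it was 5.37. E protein over ZEB transcripts stood at -1.08, at -1.17 in replicate 1 and at -1.0 in replicate 2. Its size depended on the measure, at -1.46 on CPM, -0.68 on protein-coding transcripts alone and -0.53 on full coding transcripts alone. ID over ZEB transcripts stood at -4.77, at -4.26 and -5.50 in the same order, and at -6.79 on CPM. The sign of each of the 3 ratios was the same in replicates 1 and 2. The size of the ratios that include the ID genes differed more, with the ID sum at 7.70 TPM in replicate 1 and at 3.47 TPM in replicate 2.

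Tcf12, which encodes HEB, was the leading E protein gene by TPM over all transcripts (ENSMUSG00000032228, chr9:71842688-72111871, minus strand). It had 2903 counts and 38.2 TPM in replicate 1 and 2779 counts and 36.8 TPM in replicate 2, a mean of 37.5 ± 0.955 TPM (SD, n = 2). It made up 58.1% of E protein TPM in replicate 1 and 46.8% in replicate 2, the largest share in both. On transcripts with a full coding sequence alone, Tcf12 lay below Tcf3, with a log2 ratio of Tcf12 to Tcf3 of -0.63 in place of 0.81. Its mean over all transcripts was exceeded by 9.33% of protein-coding genes. Much of this level lay on short or incomplete transcripts. Tcf12-210, a fragment of 838 bases with an open-ended reading frame, held 49.8% of the gene's TPM in replicate 1 and 24.3% in replicate 2 (378 and 159 counts). Tcf12-219, a retained-intron transcript, held 10.1% and 8.12%, and Tcf12-211, annotated as a target of nonsense-mediated decay, held 0% and 11.1%.

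Transcripts of Tcf12 with a full coding sequence carried 32.3% of its TPM in replicate 1 and 40.9% in replicate 2, but 60.8% and 66.0% of its counts, since TPM weights short transcripts up. Tcf12-201, which skips the alternative exon printed above, was the main one, with 24.4% and 29.1% of TPM (1219 and 1253 counts). Tcf12-202, which includes that exon, held 7.91% and 5.62% (545 and 333 counts). The form without the exon was thus the higher in both libraries. Tcf12-207, with an internal start, appeared in replicate 2 alone, at 6.19%. Another 11 annotated genes overlap Tcf12, of which 8 had counts, and 7 of those 8 are unconfirmed genes on the same strand within its span. By their means the highest were Gm37663, at 3.80 TPM in replicate 1 and at 3.08 TPM in replicate 2, and Gm37023, at 4.81 and 1.48 TPM. In replicate 2 the highest was A430027C01Rik, at 0.16 and 3.72 TPM. The sum of the 8 was 16.3 TPM in replicate 1 and 14.6 TPM in replicate 2, so reads from unspliced Tcf12 RNA and from these genes cannot be told apart.

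Tcf3, the E2A gene (ENSMUSG00000020167, chr10:80409514-80433647, minus strand), came second among E proteins by TPM over all transcripts and led on full coding transcripts. It had 1303 counts and 16.2 TPM in replicate 1 and 1821 counts and 26.5 TPM in replicate 2, a mean of 21.3 ± 7.34 TPM (SD, n = 2). Replicate 2 was higher by a factor of 1.64 in TPM and 1.59 in CPM. The 95% Poisson intervals of the CPM, which cover counting error only, ran from 30.4 to 34.0 in replicate 1 and from 48.7 to 53.4 in replicate 2, and did not overlap. No annotated gene overlaps Tcf3. Unlike Tcf12, nearly all of its TPM lay on transcripts with a full coding sequence, at 100% in replicate 1 and 98.5% in replicate 2.

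The E47 exon dominated over the E12 exon. Transcripts with the E47 exon summed to 14.4 TPM in replicate 1 and 20.6 TPM in replicate 2, and those with the E12 exon to 1.78 and 5.94 TPM. E47 transcripts thus held 89.0% of Tcf3 TPM in replicate 1 and 77.6% in replicate 2, a mean of 83.3% ± 8.04 (SD, n = 2). The ratio of E47 to E12 transcripts was 8.07 in replicate 1 and 3.46 in replicate 2. E47 was the higher form in both libraries, but the size of its excess was not fixed by these data. The estimate for the main E12 transcript, Tcf3-206, was 145 counts in replicate 1 and 223 in replicate 2, with SDs of 59.9 and 85.9 for the assignment of reads in the authors' deposited tables. A second E12 transcript, Tcf3-203, was listed at 0 in replicate 1 and at 9.27% in replicate 2.

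Among the E47 transcripts, the libraries were assigned to different models. Tcf3-208 held 81.5% of the gene in replicate 1 and 21.3% in replicate 2, and Tcf3-209 held 0% and 44.6%. These transcripts share 16 of 18 coding parts, and the other parts differ by 3 bases each, 6 bases in all. Their sum was 81.5% in replicate 1 and 65.9% in replicate 2, much closer than either alone. Tcf3-205, the other E47 transcript with counts, held 7.46% and 11.7%.

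Tcf4 (ENSMUSG00000053477, chr18:69343356-69689079, plus strand), which encodes E2-2, was the lowest E protein gene. It had 1150 counts and 11.3 TPM in replicate 1 and 1414 counts and 15.3 TPM in replicate 2, a mean of 13.3 ± 2.79 TPM (SD, n = 2). It took 17.3% and 19.4% of E protein TPM, and 23.9% of protein-coding genes had a higher mean. The long transcripts, which start upstream and encode an additional N-terminal activation region, kept a similar share, 37.9% of TPM in replicate 1 and 37.4% in replicate 2. Within that class the estimate moved from model to model, with Tcf4-202 at 32.0% and 0% and Tcf4-207 at 0% and 30.6%. Those 2 transcripts share all 18 coding parts.

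The short Tcf4 form, which starts within the gene, differed between the libraries. Tcf4-204 stood at 1.15 TPM in replicate 1 and at 6.85 TPM in replicate 2 (55.8 and 297 counts). Its share of the gene was 10.2% and 44.8% in the same order. Retained-intron transcripts ran the other way, with Tcf4-211 at 25.6% and 5.21% and Tcf4-214 at 17.0% and 8.95%. Full coding transcripts of Tcf4 summed to 5.44 TPM in replicate 1 and 12.6 TPM in replicate 2, further apart than the gene as a whole. Of its 15 transcripts, 4 had the same length in the deposited tables and in GENCODE M21, so the classes of Tcf4 rest on models that changed between annotation releases.

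**Figure D2:**
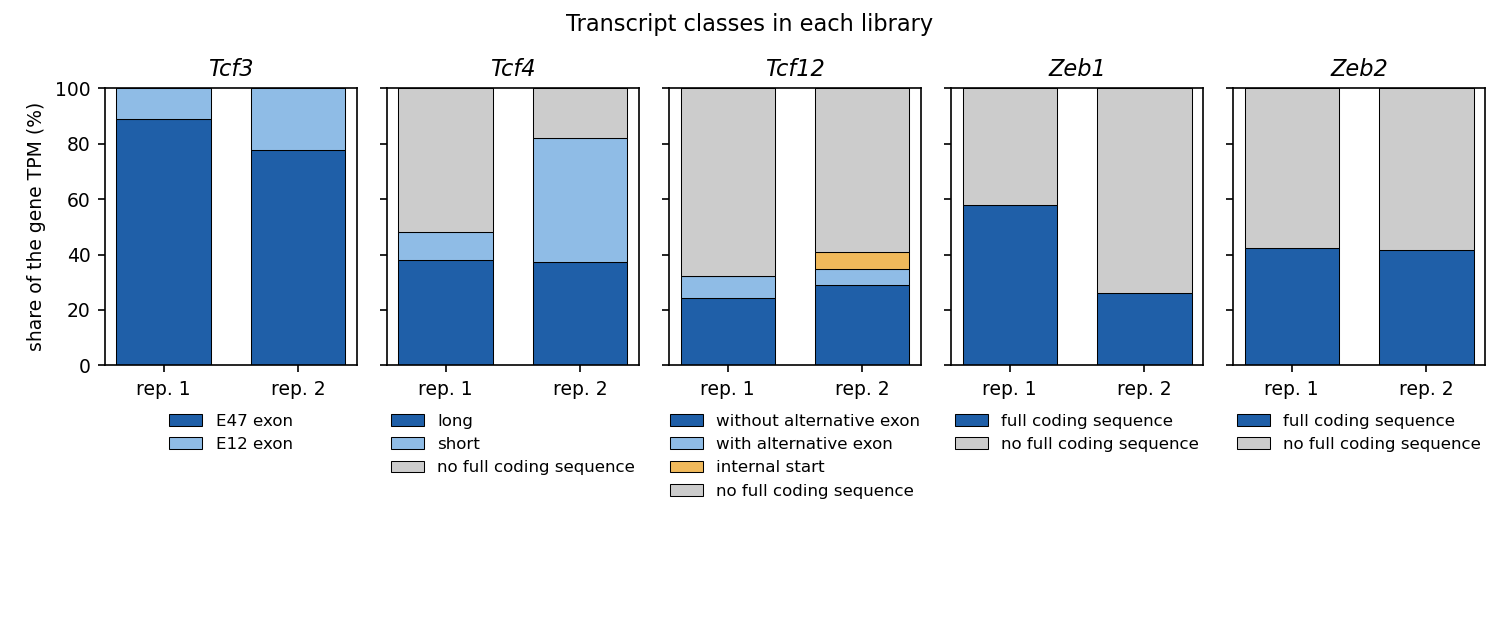
Share of each gene's TPM on its transcript classes (percent, stacked to 100) in replicates 1 and 2, for the 5 members with several transcripts detected. The E47 share of Tcf3 is the larger in both libraries, the classes of Zeb2 are nearly equal in both, and the short class of Tcf4 and the coding class of Zeb1 differ between them.

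Partners of E proteins were limited to few genes. Of 21 class II bHLH genes, 3 reached 1 TPM in both libraries, where 45.6% of protein-coding genes did so. In this list 16 genes had 0 counts in both, and 57.4% of protein-coding genes had a mean above 0 TPM. Lyl1, a bHLH factor of blood stem and progenitor cells, was highest at 39.3 TPM in replicate 1 and at 63.9 TPM in replicate 2. Tal1, the related stem cell leukaemia gene, was at 5.75 and 6.94 TPM, and Bhlha15, known from secretory cells, at 2.09 and 1.69 TPM. The muscle and neural partners such as Myod1, Myf5 and Neurod1 were among the genes at 0 counts. The median of the list was 0 TPM, against 0.550 TPM over all protein-coding genes.

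Cofactors of E proteins were present almost throughout, with 11 of 12 reaching 1 TPM in both libraries (45.6% of protein-coding genes) and a median of 24.1 TPM (0.550 TPM for protein-coding genes). The adaptor gene Lmo2, whose product bridges E protein and TAL1 or LYL1 dimers to other factors, stood at 164 and 160 TPM in replicates 1 and 2. Its relative Lmo4 was at 65.2 and 57.6 TPM, and Ldb1, which binds LMO proteins, at 42.5 and 65.4 TPM. Runx1t1, which encodes the corepressor ETO, had 0 counts in both libraries.

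Among the ID genes, 2 were detected and 2 were not. Id1 (ENSMUSG00000042745, chr2:152736251-152737410, plus strand) had 83 counts and 3.65 TPM in replicate 1 and 54 counts and 2.65 TPM in replicate 2, a mean of 3.15 ± 0.707 TPM (SD, n = 2). The intervals of its CPM overlapped, from 1.63 to 2.54 in replicate 1 and from 1.14 to 1.97 in replicate 2. All of its counts lay on Id1-201, and 41.7% of protein-coding genes had a higher mean.

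Id2 (ENSMUSG00000020644, chr12:25093799-25097140, minus strand) had 132 counts and 4.05 TPM in replicate 1 and 24 counts and 0.820 TPM in replicate 2. Its mean was 2.44 ± 2.28 TPM (SD, n = 2), so the SD nearly equalled the mean. The CPM intervals were 2.73 to 3.86 in replicate 1 and 0.431 to 1.00 in replicate 2, and did not overlap. Id2 led Id1 in replicate 1 and lay below it in replicate 2, at 52.6% and 23.6% of ID TPM. Summed neutrophil markers also stood higher in replicate 1, at 41.6 TPM against 4.32 TPM in replicate 2. Of these 4 genes, 3 were over 2-fold apart on log2(TPM + 1), all 3 higher in replicate 1. Mmp8 ran the other way, at 1.07 and 2.24 TPM. Among protein-coding genes of 1 TPM or more on average, 7.52% were over 2-fold apart. The part of the neutrophil markers in the Id2 difference was not tested. The 4 innate lymphoid markers were at 0 counts in both libraries. The conventional dendritic cell markers were near 0, with Clec9a at 0 counts in both and the list's sum at 0.75 TPM in replicate 1 and at 0.19 TPM in replicate 2.

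Id3 (ENSMUSG00000007872, chr4:136143497-136145755, plus strand) and Id4 (ENSMUSG00000021379, chr13:48261228-48266026, plus strand) had 0 counts in both libraries. A count of 0 allows up to 3 counts, or 0.0741 CPM in replicate 1 and 0.0841 CPM in replicate 2. For Id3 this is 0.169 and 0.188 TPM and for Id4 0.0681 and 0.0762 TPM. For Id4 the deposited tables use a model of 1660 bases, shorter than the 3849 bases of GENCODE M21, so reads in the remainder could not be counted. The antisense gene A330033J07Rik at its start also had 0 counts in both libraries.

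ID genes are direct targets of BMP signalling through SMAD proteins, and ID proteins are short-lived. Of 17 receptors and SMADs, 11 reached 1 TPM in both libraries, with a median of 5.00 TPM, beside 45.6% and 0.550 TPM for protein-coding genes. The highest were Smad5, a BMP-activated SMAD, at 24.9 and 21.9 TPM in replicates 1 and 2, Smad2 of the TGF-beta branch at 17.9 and 17.8 TPM, and the common partner Smad4 at 15.7 and 11.9 TPM. The type I BMP receptors Bmpr1a and Bmpr1b and the BMP-activated Smad9 had 0 counts in both libraries. Acvr1, another type I receptor gene, was detected at 1.88 and 1.39 TPM in replicates 1 and 2. The receptor gene Bmpr2 was at 6.91 and 5.99 TPM, and the BMP-activated Smad1 at 7.40 and 6.58 TPM. Among genes of this list at 1 TPM or more on average, Eng, a co-receptor, alone was over 2-fold apart, at 5.29 and 13.9 TPM. Of protein-coding genes at that level, 7.52% were over 2-fold apart. All 6 genes of ID protein turnover reached 1 TPM in both libraries, with a median of 35.8 TPM, led by the deubiquitinase gene Usp1 at 61.7 and 68.0 TPM. The proteasome subunit gene Psmd4 was at 53.8 and 61.5 TPM and Cops5, a subunit of the COP9 signalosome, at 60.4 and 48.9 TPM.

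Zeb2 (ENSMUSG00000026872, chr2:44983632-45117395, minus strand) was the highest member and differed little between the 2 libraries. It had 15948 counts and 142 TPM in replicate 1 and 14003 counts and 142 TPM in replicate 2, a mean of 142 ± 0.0283 TPM (SD, n = 2). Its mean was exceeded by 1.94% of protein-coding genes and was 3.79 times that of Tcf12. Zeb2 made up 96.3% of ZEB TPM in replicate 1 and 90.5% in replicate 2. Counting only transcripts with a full coding sequence, it stood at 60.1 TPM in replicate 1 and at 59.1 TPM in replicate 2, 42.4% and 41.6% of the gene, and was still the highest member. All 4 Zeb2 transcripts of that class with counts differ in length between the deposited tables and GENCODE M21, most of all Zeb2-202 at 9113 and 5624 bases, so the class rests on the M21 models.

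The transcripts of Zeb2 held similar shares in both libraries. The coding transcripts Zeb2-201, Zeb2-214 and Zeb2-202 held 16.0%, 15.6% and 10.8% in replicate 1 and 14.2%, 17.8% and 7.53% in replicate 2. The largest single share belonged to Zeb2-211, a transcript of 2070 bases with a reading frame of 111 bases, at 18.5% and 19.8%. Retained-intron and processed transcripts made up much of the remainder, among them Zeb2-204 at 10.9% and 8.06%, Zeb2-205 at 9.75% and 12.6%, and Zeb2-209 at 8.52% and 11.9%. The antisense gene Zeb2os (chr2:45110707-45114087, plus strand) overlaps Zeb2 and had 423 counts and 12.99 TPM in replicate 1 and 379 counts and 13.3 TPM in replicate 2. Whether counting used strand is not stated, so reads of Zeb2 and Zeb2os in the overlap cannot be told apart.

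Zeb1 (ENSMUSG00000024238, chr18:5591860-5775467, plus strand) was far below Zeb2. It had 639 counts and 5.48 TPM in replicate 1 and 1010 counts and 14.98 TPM in replicate 2, a mean of 10.2 ± 6.72 TPM (SD, n = 2). Replicate 2 was higher by a factor of 2.73 in TPM but 1.79 in CPM. The transcript Zeb1-201, the only one with a full coding sequence, differed little, at 3.16 TPM and 524 counts in replicate 1 and 3.90 TPM and 578 counts in replicate 2. It has 5805 bases in the deposited tables and 5801 in GENCODE M21. Transcripts without one summed to 2.31 TPM in replicate 1 and 11.1 TPM in replicate 2, and so carried most of the difference. Among them, the processed transcript Zeb1-203 had 27 counts in replicate 1 and 179 in replicate 2 (11.6% and 31.3% of the gene). The retained-intron transcript Zeb1-204 held 30.8% and 25.3%. The antisense gene Gm10125 at the start of Zeb1 had 0 counts in replicate 1 and 1 count in replicate 2.

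Genes of the corepressors through which ZEB factors act were all expressed. All 13 reached 1 TPM in both libraries, with a median of 45.3 TPM, beside the same 45.6% and 0.550 TPM for protein-coding genes. The highest were the histone-binding subunits Rbbp7, at 122 and 89.2 TPM in replicates 1 and 2, and Rbbp4, at 104 and 77.0 TPM, followed by the NuRD remodeller Chd4 at 65.2 and 78.0 TPM. Ctbp1, which encodes a CtBP protein bound by ZEB factors, was at 34.9 and 51.2 TPM.

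Genes that E proteins activate in lymphoid cells were mostly at or near 0. Of 16, 1 reached 1 TPM in both libraries and the median was 0.0250 TPM, below the 45.6% and 0.550 TPM of protein-coding genes. In this list 8 genes had 0 counts in both, and 57.4% of protein-coding genes had a mean above 0 TPM. Notch1, which encodes a receptor not limited to lymphoid cells, was at 9.19 and 10.9 TPM in replicates 1 and 2. Igll1, of the surrogate light chain, was at 2.14 and 0.900 TPM, and the factor gene Foxo1 at 1.24 and 0.870 TPM. Of the genes linked to TCF4 in plasmacytoid dendritic cells, 4 of 11 reached 1 TPM in both libraries, a share near the 45.6% of protein-coding genes, and the median was 0.690 TPM. These were Irf8 at 102 and 103 TPM, Bst2 at 21.9 and 27.7 TPM, Runx2 at 23.8 and 17.3 TPM and Bcl11a at 16.1 and 21.3 TPM, which other blood cells express too. The more restricted Siglech, Ccr9 and Pacsin1 had 0 counts in both libraries.

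Epithelial genes that ZEB factors repress were near 0, with 12 of 15 at 0 counts in both libraries and none at 1 TPM in both. Of protein-coding genes, 45.6% reached 1 TPM in both libraries and 57.4% had a mean above 0 TPM. Cdh1, which encodes E-cadherin, stood at 2.21 TPM in replicate 1 and at 0.520 TPM in replicate 2. Tjp3, of tight junctions, was at 2.04 and 0.280 TPM. These 2 were over 2-fold apart on log2(TPM + 1), as were 7.52% of protein-coding genes of 1 TPM or more on average. Rab25, a small GTPase gene of epithelia, was at 0.55 and 0.50 TPM. The other factors of epithelial-mesenchymal transition, among them Snai1, Snai2, Twist1 and Prrx1, had 0 counts in both libraries for 7 of 7 genes. Of these 7 and the ZEB genes, Zeb1 and Zeb2 alone were detected.

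**Figure D3:**
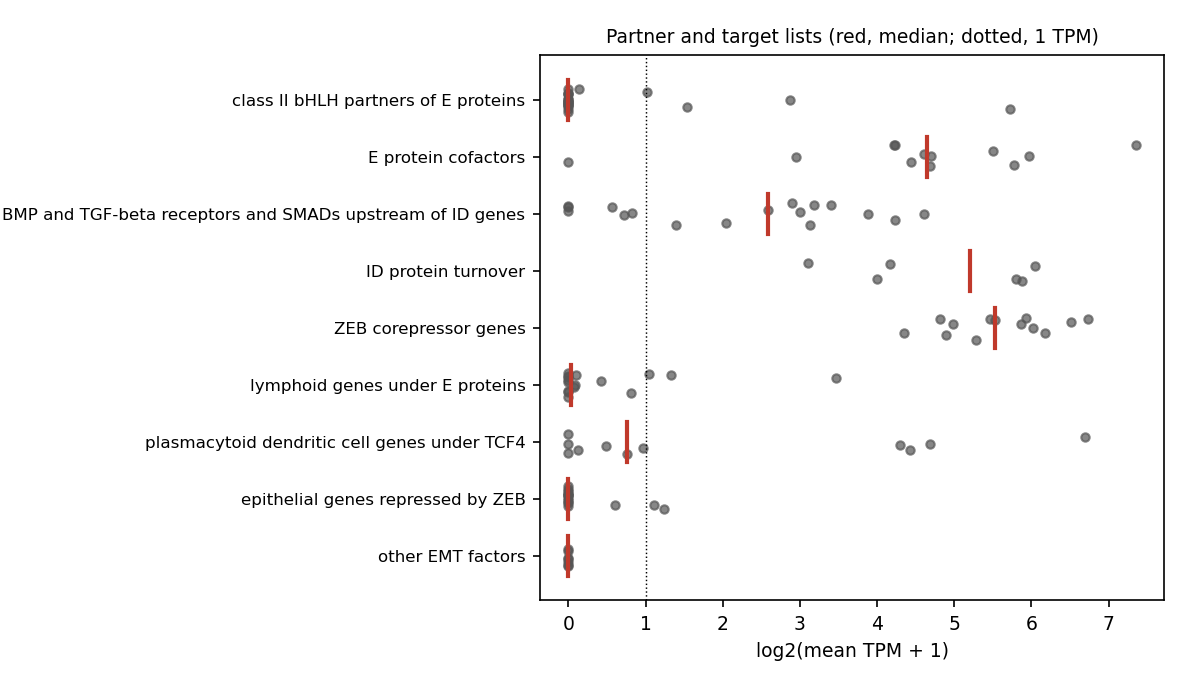
Mean level, log2(mean TPM + 1) over the 2 GMP libraries, of each gene in the 9 lists of partners, upstream genes and targets. Each point is a gene, the red line is the list's median and the dotted line marks 1 TPM. The lists of cofactors, ID turnover and ZEB corepressors lie mostly above the dotted line, and the lists of bHLH partners, lymphoid, epithelial and transition genes mostly at or near 0.

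The spread between libraries was examined across all protein-coding genes of 1 TPM or more on average, of which there were 10278. Over 2-fold differences on log2(TPM + 1) were found for 7.52% of them, and for 5.53% on log2(CPM + 1) with TMM scaling, a normalisation for library composition. Of the 9 members, 7 passed that filter on level. By TPM, 2 of these 7 were over 2-fold apart, Zeb1 with a log2 ratio of replicate 2 to replicate 1 of 1.30 and Id2 with -1.47. By CPM, 1 remained, Id2 at -1.40, while Zeb1 was at 0.72, Tcf12 at 0.04 and Zeb2 at -0.09. On full coding transcripts, where 8.4% of 10218 protein-coding genes were over 2-fold apart, Id2 and Tcf4 were the members past it and Zeb1 differed by a factor of 1.23. Only Id2 was over 2-fold apart by all 3 measures. It has 1 transcript, so for Id2 the full coding measure repeats the TPM and adds nothing to it. The remaining log2 ratios by TPM were 0.68 for Tcf3, 0.40 for Tcf4, -0.35 for Id1, -0.05 for Tcf12 and 0.00 for Zeb2, against a median absolute ratio of 0.29 over these protein-coding genes.

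**Figure D4:**
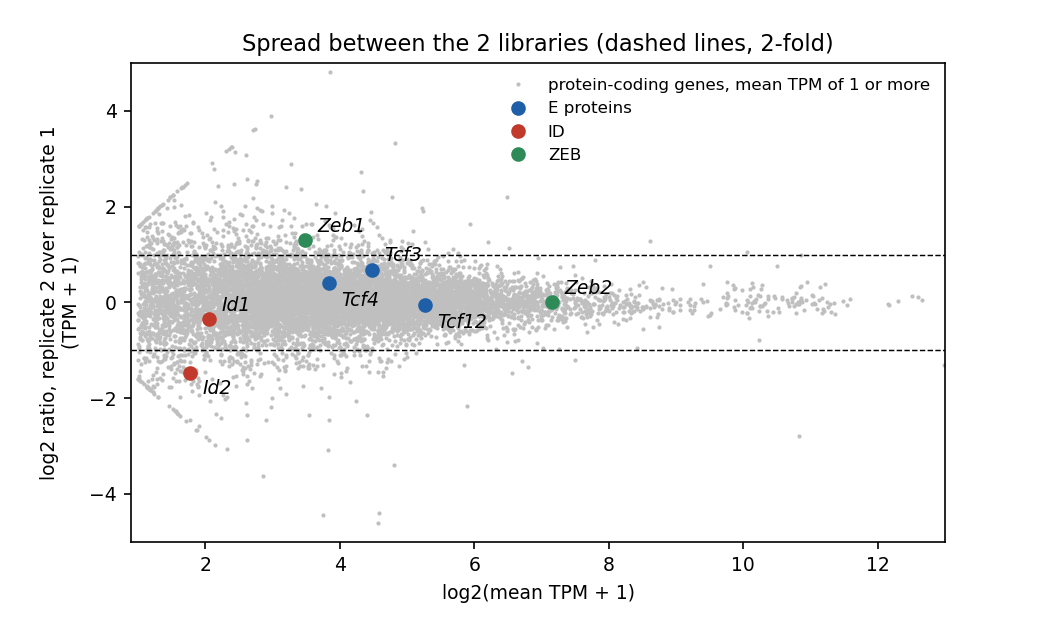
Log2 ratio of replicate 2 to replicate 1, as log2(TPM + 1), against log2(mean TPM + 1) for protein-coding genes of 1 TPM or more on average (grey), with the 7 members that passed in colour and dashed lines at 2-fold. Zeb1 lies above the upper line and Id2 below the lower one, Zeb2 lies at 0, and 1 gene falls outside the axes.

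Counting only full coding transcripts changed the order of the members. Zeb2 stayed first at 59.6 ± 0.707 TPM, but Tcf3 at 21.1 ± 7.04 TPM then lay above Tcf12 at 13.7 ± 1.94 TPM (SD, n = 2). In replicate 1 these were 16.2 TPM for Tcf3 and 12.3 TPM for Tcf12, and in replicate 2 they were 26.1 and 15.1 TPM, so Tcf3 led in both. Tcf4 followed at 9.01 ± 5.04 TPM and Zeb1 at 3.53 ± 0.523 TPM, above Id1 at 3.15 TPM by less than either SD. The summed coding level was 63.3 and 63.0 TPM for ZEB genes in replicates 1 and 2 and 33.9 and 53.7 TPM for E protein genes.

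The 2 protein-coding genes nearest to each of the 6 members that reached 1 TPM in both libraries, in log2(TPM + 1) over the 2 libraries, by Euclidean distance, describe likeness of level only. For Tcf12 they were Smarcc1 (distance 0.00732) and Sdf2 (0.00816), for Tcf3 Dcaf1 (0.0182) and Timm10b (0.0419), and for Tcf4 Zbtb34 (0.0121) and Dctn4 (0.0264). For Id1 they were Epha7 (0.0122) and Pigg (0.0194), for Zeb2 Dut (0.0133) and Gpx4 (0.0267), and for Zeb1 Smim8 (0.0582) and Tlcd2 (0.0797). Over 2 libraries such neighbours share both library and depth.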

How the data were processed

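Expected counts, TPM and, for transcripts, the percent of gene TPM assigned to a transcript were used as the authors deposited them. The text files that the authors deposited beside the tables name mm10, annotation M4 and alignment to the transcriptome. The aligner, the quantifier and any use of strand in counting are not stated in the sources used here. The deposited TPM values are scaled over all rows, spike-ins and ribosomal RNA included. Depth was 40509954 expected counts in replicate 1 and 35675702 in replicate 2. With no molecular identifiers named in the labels, intervals and floors cover counting error only.

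GENCODE M21, on the same assembly, gave symbols, biotypes and coding sequences by identifier without version, and 42462 of 69691 rows matched, among 43346 Ensembl rows. A full coding transcript is annotated as protein-coding, has no missing start or end, and has a reading frame of at least 50% of the gene's longest. This class was chosen after seeing the data.

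The members and lists were chosen with earlier results of these data known. Twist1 and Twist2 stand in 2 lists, as does Ccr9. Text names all members, transcripts of 10% or more in either library, the 3 highest genes of each list, genes at 0 counts where a list has 4 or fewer, and overlapping genes, of which those at 0 counts and the lowest are given by number. The transcripts Tcf3-203, Tcf3-212, Tcf12-202 and Tcf12-207 and the genes Bcl11a, Eng, Ctbp1, Clec9a and the other examples were named after their values were seen. Some genes of the lists are not reported here.

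Means are over 2 libraries, with the SD. Intervals are 95% exact Poisson, and the floor for a count of 0 is 3 counts. CPM are expected counts scaled to the library total, with TMM factors from edgeR 4.0.16 on rounded counts where stated. DESeq2 1.42.0 size factors were an alternative. The software was R 4.3.3 and Python 3.11.15, with pandas 2.3.3, numpy 2.4.6, matplotlib 3.10.9 and scipy 1.17.1. Only the ratio between replicates and its 2-fold cut were tested on simulated data, with known changes. Other alternatives were CPM, other pseudocounts and filters, protein-coding transcripts alone, and each replicate left out. No gene was tested.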

Additional observations from a re-analysis of the deposited data

How the results depend on the processing

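The signs of the 3 family ratios held under every alternative run, but their sizes did not. On CPM, with no division by length, the log2 ratio was 5.33 for E protein over ID genes, -1.46 for E protein over ZEB and -6.79 for ID over ZEB. As a difference in mean log2(TPM + 0.1) over members they were 5.37, -0.79 and -6.16. E protein over ZEB was -0.68 on protein-coding transcripts, -0.53 on full coding transcripts and -0.80 as a difference in mean log2(TPM + 1), and ID over ZEB was -3.50 on full coding transcripts. The count of members over 2-fold apart was 1 under 3 alternatives, but the member was not the same. With a filter of 10 TPM it was Zeb1, at a mean of 10.2 TPM, since Id2 at 2.44 TPM did not pass. With TMM-scaled CPM and with DESeq2 size factors it was Id2. Rescaling TPM without ribosomal RNA-like genes raised every level above 0, that of Zeb2 to 245 TPM. Between single members, Tcf12 over Tcf3 reversed to -0.63 on full coding transcripts. Id1 over Id2 reversed to -0.14 on CPM, and ran from -0.15 to 1.69 with a replicate left out. The cause was not tested. The 3 ratios and the 2 counts of members were set against their main values under the alternatives. Of these values, 23 moved by less than 1 SD (counts, by at most 1.5 times) and 13 by more. That SD came from the same 2 libraries, so ratios with a replicate left out lie within it almost by construction. No paired analysis was possible because there is only 1 group. Depth limits the ID genes most, with 24 to 132 counts for Id1 and Id2 in each library.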
